A study of Mus musculus with 12 samples.

Results

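The imprinted cluster around Peg10 and Sgce on mouse chromosome 6 was examined in RNA from brain sections bathed for 5 hours in L-fucose added to artificial cerebrospinal fluid (aCSF), or in aCSF alone. The 6 genes Peg10, Sgce, Ppp1r9a, Calcr, Asb4 and Tfpi2 were taken by symbol from the GENCODE M21 annotation of GRCm38, out of 56923 rows in the table, and all 6 passed the filter on low values and were tested. They lie within 1.75 Mb of each other. L-fucose is a sugar found on many glycan chains of cell-surface proteins and lipids. The aCSF is a salt solution that keeps cut brain tissue alive. Each group had 6 libraries from wild-type mice, named here by group and replicate number. The labels used here name no strain, age, sex or brain region, and do not state whether the libraries of a group came from separate animals, so p-values measure the spread between these libraries, which may be partly technical.

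Imprinted genes are transcribed mainly from the copy inherited from 1 parent. In this cluster a stretch of DNA over the shared start region of Peg10 and Sgce is methylated on the maternal chromosome, and both genes are read from the paternal copy. Calcr, Ppp1r9a, Asb4 and Tfpi2 are known for maternal expression in particular tissues, such as brain for Calcr and placenta for Tfpi2. The present values are totals over both parental copies, so they hold no measure of imprinting.

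Peg10 derives from a retrotransposon and keeps its way of making a longer protein, a backward slip of the ribosome by a single base. The site is shown because it lies inside the counted exon: both proteins come from a single messenger RNA, and the Peg10 row cannot tell them apart. The stretch below is coding sequence of the GENCODE transcript on the plus strand at chr6:4755292-4755351 in GRCm38, with the slip heptamer in capitals. It ends with the stop codon of the short reading frame, at chr6:4755349-4755351, while the long frame runs on to base 4757237.
Peg10 frameshift site: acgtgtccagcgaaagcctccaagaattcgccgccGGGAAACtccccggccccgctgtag

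Library totals ran from 9191687 to 18563078 reads. Values are normalized reads, which means reads scaled by a size factor for each library. In much of the deposited table the levels do not match the exons of the genes that the rows are named for, so genes are named only from stretches where they do, called in register here. All 6 genes lie in such a stretch, on chromosome 6 from 3.07 to 30.59 Mb. In the 3 windows of 80 rows that cover them, levels matched protein-coding exons best with no displacement (r between 0.79 and 0.82 across rows, which are not independent replicates). The members were therefore chosen in part by their mean level over all 12 libraries, and the treatment groups did not enter that rule. aCSF 5 and 6 stood apart from the other libraries with the fewest rows above 0, 14340 and 14856, the next being L-fucose 4 with 16514. They also had the highest shares of mitochondrial reads, 41.9% and 44.8%, but L-fucose 6 was close at 40.5%. Results are also given without aCSF 5 and 6. The row named Ddx3y, a gene of the Y chromosome, lies outside the stretches in register. It was at 1184 to 1720 normalized reads in L-fucose 1, 3 and 5 and aCSF 1, 4 and 5. In the other libraries it was at 0, or 6.08 in L-fucose 2. Each group thus held libraries of both kinds, and the part of this split in the results was not tested.

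Per kilobase of annotated exon, the level was highest for Peg10 and Ppp1r9a and lowest for Calcr. Over 12 libraries Peg10 had 384 ± 62.5 normalized reads per kb (SD), and Ppp1r9a, the gene of the actin-binding scaffold neurabin-1 of neurons, had 346 ± 35.2. These levels differed by less than their spread. Their order differed by group, with Peg10 at 341 and Ppp1r9a at 347 per kb in L-fucose, against 428 and 346 in aCSF. Sgce, the gene of epsilon-sarcoglycan, a membrane protein of the dystrophin-associated complex that is mutated in human myoclonus-dystonia, followed at 108 ± 11.7 per kb. Asb4, a substrate adaptor of ubiquitin ligases known from the hypothalamus, had 64.6 ± 23.0, Tfpi2, an inhibitor of serine proteases outside cells, 39.0 ± 31.8, and Calcr, the calcitonin receptor, 19.4 ± 12.2. Neighbours in this order from Asb4 downwards lay within their spread of each other. None of the 6 genes shares exonic bases with another annotated gene, and the annotated starts of Peg10 and Sgce, on opposite strands, are 98 bp apart.

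Peg10 (ENSMUSG00000092035, chr6:4747306-4760517, plus strand) was lower in L-fucose. It had 2012 normalized reads in the lowest L-fucose library, a median of 2249.7 and 2576 in the highest, against 2448, 2821 and 3516 in aCSF. All 6 L-fucose libraries lay below the aCSF median, and the ranges met only because L-fucose 6, at 2576, exceeded aCSF 3, at 2448. Peg10 averaged 2272 ± 210 with L-fucose, against 2853 ± 368 with aCSF alone (SD, n = 6 each). The log2 fold change, L-fucose over aCSF on log2(value + 1), was -0.32 (SE 0.10, 95% confidence interval -0.52 to -0.12). With limma the unadjusted p was 0.00308 and the p adjusted over all 10787 rows was 0.827, so the difference did not pass the threshold of 0.05. In bulk tissue, fewer cells of a type and less RNA per cell cannot be told apart.

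Among all rows tested, 5.96% had an unadjusted p under 0.05, 2.79% in the lower direction and 3.17% in the higher, and 0% passed after adjustment. Of the 6 cluster genes, 1 was under 0.05 unadjusted, Peg10, and 0 passed after adjustment. DESeq2 called a single row, 0.00344% of the 29080 rows to which it gave a p, and no cluster gene. That share counts rows that its own filter left without an adjusted p. A fold change as low as that of Peg10 was found in 13% of all rows, and all 6 L-fucose libraries lay below the aCSF median in 7.92%. That Peg10 was lower was known from earlier work on these data when it was chosen, so its p is no independent support. The cluster as a whole had 2 positive and 4 negative fold changes with a median of -0.09, beside a median of 0.01 over all rows tested. In the 457 tested rows in register, where levels matched exons over windows of rows, the median was -0.05, with 281 below 0 and 45 under 0.05 unadjusted. Without aCSF 5 and 6 the Peg10 fold change was -0.36 (limma adjusted p 0.297), where 11.3% of 10425 rows were under 0.05 unadjusted.

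**Figure D1:**
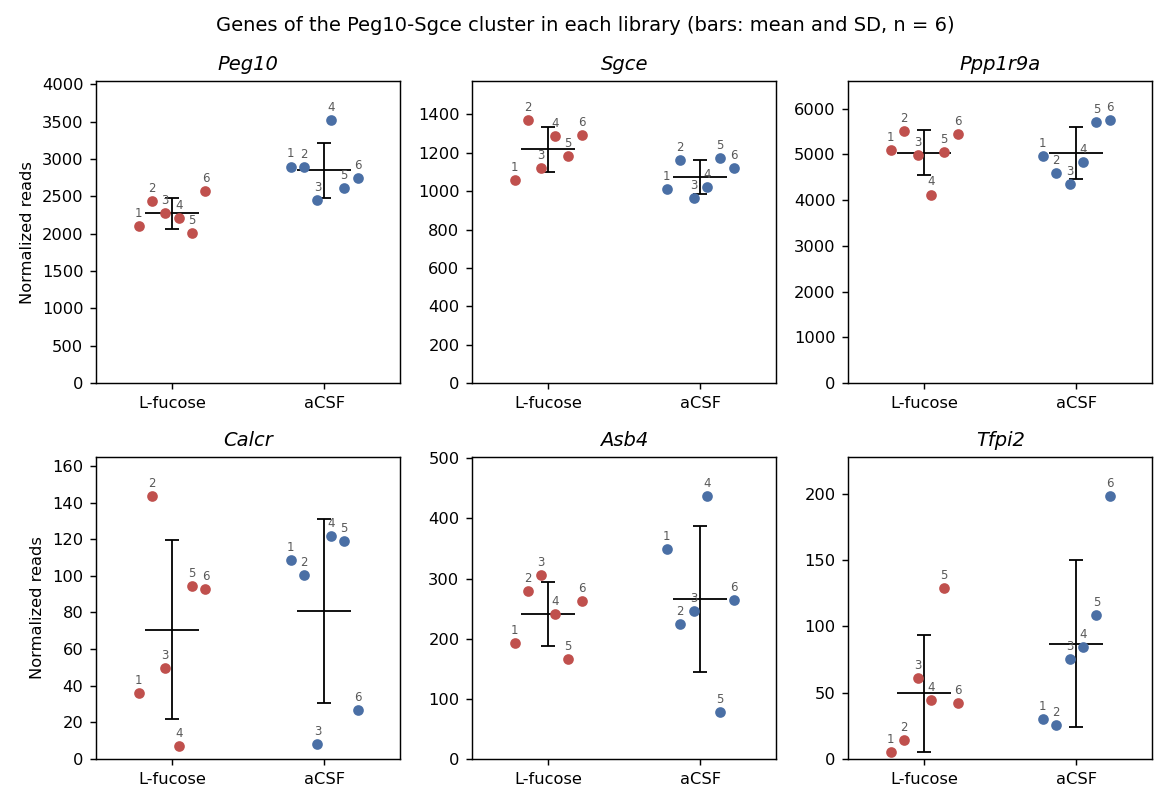
Normalized reads (y axes, from 0) of the 6 cluster genes in each L-fucose and aCSF library; each point is a library with its replicate number, and bars give the mean and SD of 6 libraries. L-fucose and aCSF ranges overlap in all 6 genes, and in Peg10 by a single pair of libraries.

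Sgce (ENSMUSG00000004631, chr6:4674350-4747207, minus strand), which starts beside Peg10, did not follow it. Its lowest, median and highest values were 1058, 1236 and 1369 in L-fucose, against 966, 1071 and 1173 in aCSF. In L-fucose, 5 of 6 libraries lay above the aCSF median, and the ranges overlapped. Sgce averaged 1218 ± 118 with L-fucose, against 1075 ± 87.4 with aCSF alone. Its log2 fold change was 0.18 (interval -0.02 to 0.38, limma adjusted p 0.848). Without aCSF 5 and 6 it was 0.23 (limma adjusted p 0.425). The difference of Sgce was not told apart from the spread between libraries.

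The ratio of Peg10 to Sgce was lower in L-fucose, in libraries whose lower Peg10 was already known. There were 1.70 to 2.04 Peg10 reads per Sgce read in the L-fucose libraries, with a mean of 1.87 ± 0.154, against 2.22 to 3.44 in the aCSF libraries, with a mean of 2.67 ± 0.432 (SD, n = 6 each). The groups did not overlap, and the lowest aCSF ratio was that of aCSF 5. This ratio does not depend on the size factor of a library. Peg10 held 65.1 ± 1.88% of the reads of the pair in L-fucose and 72.5 ± 2.97% in aCSF. The mean log2 ratio was 0.90 ± 0.12 in L-fucose and 1.40 ± 0.22 in aCSF, a difference of -0.50 (two-sided exact permutation p = 0.00216, the smallest that 924 regroupings can give). The ratio holds the same Peg10 values, so this p is no independent support either.

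The ratio was also computed for every pair of neighbouring tested rows on a chromosome, 10424 pairs, some sharing a row. Only 457 of the 10787 tested rows are in register. Most of these pairs thus need not be ratios of the genes that their rows are named for. Groups without overlap were found in 27 pairs, or 0.259%, of which Peg10 and Sgce are 1, and 5.34% of pairs had an unadjusted p under 0.05 with limma. The pair had a difference of -0.50 (SE 0.12, interval -0.75 to -0.25), and none passed (limma adjusted p 0.894 for the pair). Its rank depended on the variance model: 4 pairs had a smaller p with a variance trend (unadjusted p 0.000429), and 110 with 1 prior variance for all pairs (unadjusted p 0.0103, interval -0.86 to -0.14, limma adjusted p 0.922). Without aCSF 5 and 6 the difference was -0.59, with a limma adjusted p of 0.145. The exact permutation p was 0.00952, again the smallest possible, which groups without overlap must give. In that limma fit 9.22% of pairs had an unadjusted p under 0.05, 7 pairs had a smaller p, and 1 other pair passed (adjusted p 0.0173). Of the 5 ratios of Peg10 to another cluster gene, that to Sgce was the single case in which the groups did not overlap. The log2 difference was -0.33 for the ratio to Ppp1r9a, -0.32 for that to Asb4, -0.15 for that to Calcr and 0.72 for that to Tfpi2.

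**Figure D2:**
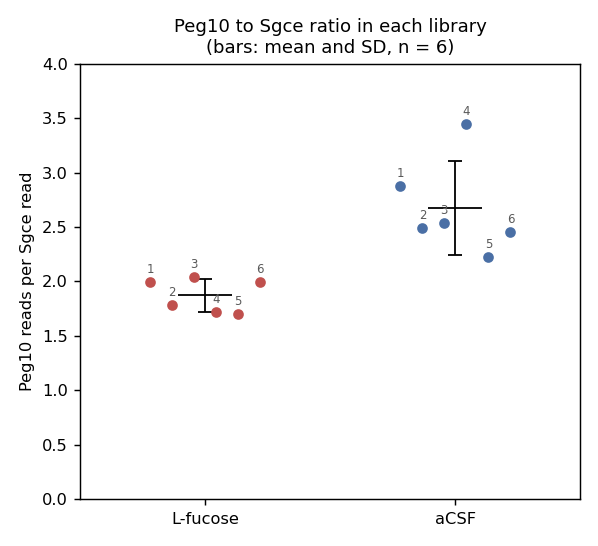
Peg10 reads per Sgce read (y axis, from 0) in each L-fucose and aCSF library; points carry the replicate number, and bars give the mean and SD of 6 libraries. The L-fucose libraries sit between 1.70 and 2.04, all below the aCSF libraries, which sit between 2.22 and 3.44.

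Ppp1r9a (ENSMUSG00000032827, chr6:4902917-5165661, plus strand) was the most abundant row of the cluster and one of its steadiest. It had 4122 normalized reads in the lowest L-fucose library, a median of 5071 and 5519 in the highest, against 4359, 4896 and 5739.7 in aCSF. The ranges overlapped almost fully, with L-fucose 4 at the bottom and aCSF 6 at the top. Ppp1r9a averaged 5037 ± 499.9 with L-fucose, against 5033 ± 572 with aCSF alone. Its log2 fold change was 0.0026 (interval -0.19 to 0.20, limma adjusted p 0.998). Its coefficient of variation over 12 libraries was 10.2%, and 11.6% of the 457 tested rows in register varied less.

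Asb4 (ENSMUSG00000042607, chr6:5383386-5433022, plus strand) had 166.1 normalized reads in the lowest L-fucose library, a median of 251.8 and 305.6 in the highest, against 78.5, 255 and 437.2 in aCSF. The aCSF libraries held both extremes, aCSF 5 and aCSF 4, and enclosed the whole L-fucose range. Its log2 fold change was -0.0040 (interval -0.61 to 0.60, limma adjusted p 0.999). This value depended on which aCSF libraries were kept. It was -0.32 without aCSF 5 and -0.36 without aCSF 5 and 6 (limma adjusted p 0.823 and 0.499). In the other direction, it was 0.17 without aCSF 4 and 0.11 without aCSF 1 (limma adjusted p 0.940 and 0.956). With edgeR and DESeq2, which were fitted to recovered reads, it was -0.14 over 12 libraries.

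Calcr (ENSMUSG00000023964, chr6:3685680-3764714, minus strand) varied 20.3-fold between libraries of the study. It had 7.07 normalized reads in the lowest L-fucose library, a median of 71.3 and 143.5 in the highest, against 7.89, 104.8 and 121.9 in aCSF. L-fucose 4 and aCSF 3, with 6 and 8 reads, were far below most libraries, and aCSF 6 followed with 22 reads. Both groups thus held low and high libraries. Its log2 fold change was -0.18 (interval -1.56 to 1.20, limma adjusted p 0.978). The coefficient of variation between libraries was 62.8%, against 11.2% from counting alone at its mean level.

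Tfpi2 (ENSMUSG00000029664, chr6:3962595-3988919, minus strand) was the most variable gene of the cluster, from 5 reads in L-fucose 1 to 162 in aCSF 6. It had 5.17 normalized reads in the lowest L-fucose library, a median of 43.4 and 128.9 in the highest, against 25.9, 79.8 and 198.2 in aCSF. In L-fucose, 5 of 6 libraries lay below the aCSF median, L-fucose 5 being the exception, and the ranges overlapped. Its log2 fold change was -1.05 (interval -2.30 to 0.20, limma adjusted p 0.848). The value was -0.55 without L-fucose 1 and -0.51 without aCSF 5 and 6. Its coefficient of variation was 81.5%, and 4 of the 457 tested rows in register varied more. Calcr, at 62.8%, was passed by 30 of them and Asb4, at 35.6%, by 96, while Peg10, at 16.3%, and Sgce, at 10.8%, lay below the median of 18.5%. Lower rows have more counting error, which at the mean level of Tfpi2 and Calcr was about 12.4% and 11.2%.

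The co-variation of the cluster genes over libraries was examined in all 15 pairs on log2(value + 1). Peg10 and Sgce had a Pearson r of -0.32 (permutation p = 0.311, adjusted 0.865) and a Spearman rho of -0.36 (permutation p = 0.257, adjusted 0.877) over 12 libraries. Without L-fucose 5 and aCSF 4, the libraries farthest from the Peg10 median, r was -0.12. It was 0.62 within the L-fucose group, -0.07 within the aCSF group and 0.25 on deviations from the group means. The negative sign was thus not found in the pooled deviations, while r within aCSF was small and negative. Sgce was at 1058 to 1186 in L-fucose 1, 3 and 5, which were high in the Ddx3y row. It was at 1287 to 1369 in L-fucose 2, 4 and 6. In aCSF the same split gave 1009 to 1173 and 966 to 1161, and its part in r was not tested. None of the 15 pairs had a permutation p under 0.05, before or after adjustment, and 8 pairs were positive and 7 negative.

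Peg10 and Asb4 had the highest r of the pairs with Peg10, 0.42 over 12 libraries (permutation p = 0.160, adjusted 0.865; rho 0.50, permutation p = 0.106, adjusted 0.877). It was 0.79 within the L-fucose group, 0.61 within the aCSF group and 0.80 without aCSF 5 and 6. Without L-fucose 5 and aCSF 4, the lowest and the highest in Peg10, it was 0.06, with aCSF 5, the lowest in Asb4, still included. The value thus depended on which libraries were kept. Ppp1r9a and Calcr had an r of 0.59 (permutation p = 0.0524, adjusted 0.787; rho 0.29, permutation p = 0.353, adjusted 0.877), which was -0.19 without L-fucose 4 and aCSF 3, the lowest libraries of Calcr. All values of a library share its depth and size factor.

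**Figure D3:**
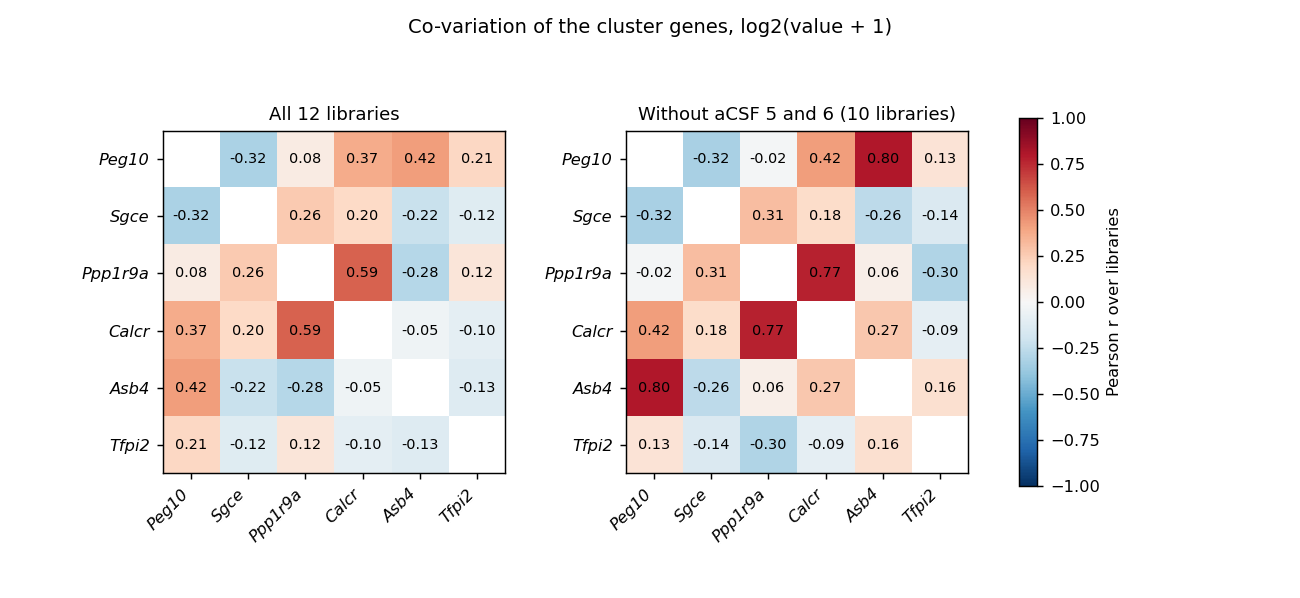
Pearson r over libraries for each pair of the 6 cluster genes, with all 12 libraries on the left and without aCSF 5 and 6 on the right; colour gives r from -1 to 1. Peg10 with Sgce is -0.32 in both, and Peg10 with Asb4 is 0.42 on the left and 0.80 on the right.

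Among 376 other tested genes in register, the pattern most like that of Peg10 over 12 libraries was that of Rad54b, a gene of recombinational DNA repair, with a Pearson r of 0.81. It was followed by Thoc1 of the mRNA export complex THO (0.76), Gabrr2, a rho subunit of GABA receptors (0.74), Zfp800 (0.68) and Tnpo3, a nuclear import receptor (0.67). All 5 had negative fold changes, from -1.51 for Gabrr2 to -0.14 for Thoc1. The most opposite were Ccdc136 (-0.80), the ubiquitin ligase gene March11 (-0.80) and Wnt16, a secreted ligand (-0.75), which had positive fold changes of 0.25, 0.28 and 0.99. For Sgce the highest were Cpa4 (0.72), Bag1, a co-chaperone (0.70), Igfbpl1 (0.69), Trmo (0.66) and Ropn1l (0.65). The lowest were Ube2j1 (-0.72), Nr4a3, an immediate early gene (-0.67), and Pdk4 (-0.65), which lies near Asb4. These are the extremes of many correlations and are given as a description. The group difference was left in these r values. Genes ranked highest for Peg10 were thus prone to negative fold changes and the lowest to positive ones, so these signs add no support.

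The fold changes of the cluster were set beside those of other genes in an interval of chromosome 6 that is wider than the cluster and runs on past Asb4 to Asns. Of 19 listed genes from Hepacam2 to Asns, 18 were tested; fold changes were above 0 in 10 and below 0 in 8, with a median of 0.02. None passed limma after adjustment, and 2 had an unadjusted p under 0.05, beside 5.96% of all rows. These were Pdk4, the kinase that inhibits pyruvate dehydrogenase, at -0.42 (917 ± 151 in L-fucose and 1229 ± 193 in aCSF) and Vps50, an endosomal tethering protein, at -0.19 (1657 ± 141 in L-fucose and 1886 ± 159 in aCSF). Casd1, which acetylates sialic acids and lies next to Sgce, averaged 1421 ± 167 with L-fucose, against 1474 ± 158 with aCSF alone, a fold change of -0.05 (interval -0.27 to 0.16). The paraoxonase genes beyond Ppp1r9a, which in other work are placed in or beside the imprinted domain, were at 0.04 for Pon2 (-0.16 to 0.24), -0.46 for Pon3 (-1.12 to 0.20) and 1.18 for Pon1 (-0.59 to 2.96), the last with at most 40 normalized reads in any library. The genes on either side of the Peg10 and Sgce pair, Casd1 and Ppp1r9a, thus had intervals that included 0.

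The other tested genes of the list had intervals that included 0. Gng11, a G protein subunit, was at 0.07, Bet1, a vesicle fusion protein, at 0.0044, and Col1a2, a fibroblast collagen, at 0.24. Hepacam2, with a mean of 7.62 in L-fucose and 11.7 in aCSF, was at -1.13, and at -0.61 with edgeR. Dync1i1, a dynein subunit of neurons, was at -0.0058, and Sem1, a proteasome subunit, at 0.22. Slc25a13, a mitochondrial carrier, was at -0.34, and at -0.09 with edgeR. Its means were 95.3 in L-fucose and 101 in aCSF. Dlx6 and Dlx5, transcription factors of forebrain interneurons, were at 0.24 and 0.30, Sdhaf3, an assembly factor of complex II, at 0.23, Tac1, the substance P precursor, at 0.16, and Asns, asparagine synthetase, at -0.0080. Gngt1 had 1 read in a single L-fucose library and 0 in the aCSF libraries, and was not tested.

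**Figure D4:**
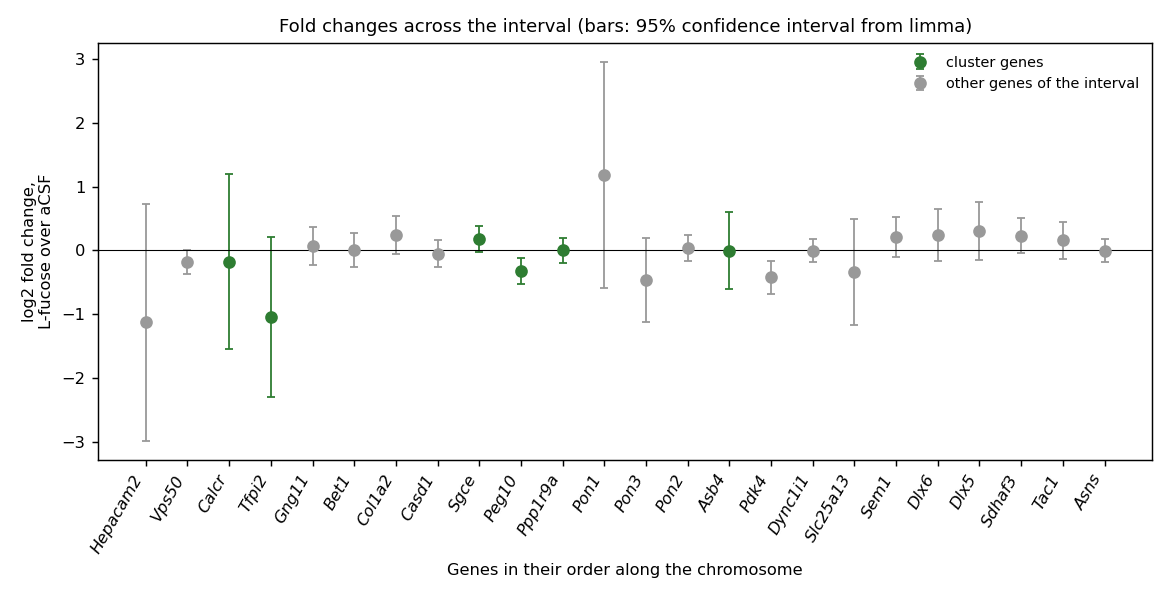
Log2 fold changes of L-fucose over aCSF (y axis) for the 6 cluster genes and 18 other tested genes of the wider interval. Genes are in their order along the chromosome (x axis), and bars are 95% confidence intervals from limma. Peg10 at -0.32 lies below 0 and its neighbour Sgce at 0.18 above it, between Casd1 at -0.05 and Ppp1r9a at 0.0026.

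Markers of cell types were read from 13 genes in register. None passed limma after adjustment, and 5 had an unadjusted p under 0.05, 4 of them lower in L-fucose, beside 5.96% of all rows tested, 2.79% lower, and 45 of the 457 in register. The genes of motile cilia Spef2, Cfap206 and Capsl, which mark ependyma, were among the 4. Their summed level was 133 to 235 normalized reads in L-fucose libraries, median 204, against 259 to 411 in aCSF libraries, median 369. The groups of the sum did not overlap, while each gene overlapped by itself (limma adjusted p 0.775 to 0.827). The 3 genes were picked as a list with earlier results of these data known, so the lack of overlap is no independent support. It held for 0.287% of single rows, but the share among sums of 3 genes was not computed. None of the 3 was at 0 in any library. Ptprz1, of radial glia, astrocytes and oligodendrocyte precursors, had a fold change of -0.30, and the striatal peptide gene Penk one of 0.61. Tac1, the other striatal peptide gene listed, was at 0.16. Prlr, listed for choroid plexus, was at -0.57, and Foxp2, for deep cortical layers, at 0.08. Dlx5, Dlx6 and Col1a2 were at 0.30, 0.24 and 0.24. The intervals of Tac1, Prlr, Foxp2, Dlx5, Dlx6 and Col1a2 included 0. The neuronal genes Gabbr2 and Basp1 were at 0.02 and 0.03. The part of these cell types in the Peg10 and Sgce values was not tested.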

How the data were processed

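RNA from brain was sequenced after capture of messenger RNA on poly-T beads and random priming, per the labels' protocols. Tools named in the submitters' processing notes are featureCounts 2.0.3, HISAT2 2.2.1, DESeq2 2.11.40.8 and Trimmomatic 0.39, with build mm10; no annotation or strand setting is named there. The table that the authors deposited holds a normalized signal, not raw counts. Dividing each column by what a single read is worth gave whole reads (within 0.01) for 100% of values, so reads could be recovered.

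Positions came from GENCODE M21 (GRCm38, the assembly of mm10), in which 52073 of 56923 identifiers had a symbol. In-register rows were those for which all windows of 80 rows over them, moved by 20, correlated log2 mean level with the share of exonic bases in protein-coding exons best within 1000 bp of no displacement (tried up to 600 kb in steps of 500 bp), over at least 120 rows. This gave 1400 rows. It was tested on simulated data, but small or changing displacements were not.

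limma 3.58.1 in R 4.3.3 was fitted to log2(value + 1) of 10787 rows with at least 10 in at least 6 libraries, with an intensity trend. Two-sided p-values had Benjamini-Hochberg adjustment across the tested rows. Correlations used 100000 permutations. edgeR 4.0.16 and DESeq2 1.42.0 were run on recovered reads as alternatives; edgeR called 0 rows and DESeq2 1. The members, gene lists and tests were chosen with earlier results of these data known. The fits over neighbouring pairs were added after the data were seen. Named genes are the 6 members, the listed neighbours, and for Peg10 and Sgce the 5 highest and 3 lowest correlations in register, without predicted models. Replicate numbers were not treated as pairs in the main tests, though the sample titles use the same numbers in both groups. Same-numbered libraries correlated between -0.17 and 0.17 in their deviations, over 0.1 for 1 of 6 numbers. Such low values cannot show whether a number stands for a shared animal. The row named Ddx3y was at 1285 and 0 in L-fucose 3 and 4, against 0 and 1352 in aCSF 3 and 4. For the other numbers it was high in both groups or in neither.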

Additional observations from a re-analysis of the deposited data

How the results depend on the processing

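Peg10 stayed negative, from -0.37 to -0.26, and Sgce positive, from 0.14 to 0.23, in 22 alternatives each, among them edgeR with TMM or RLE factors, DESeq2, other pseudocounts and filters, and each library left out. No cluster gene passed the adjusted threshold in any alternative. Leaving out 1 library at a time, Ppp1r9a ran from -0.037 to 0.059, Calcr from -0.72 to 0.36, Asb4 from -0.32 to 0.17 and Tfpi2 from -1.43 to -0.55, so the signs of Ppp1r9a, Calcr and Asb4 turned. Asb4 was also at 0.014 with TMM rescaling. The lowest Calcr value was without aCSF 3 and the highest without L-fucose 4. The count of rows past the threshold was 0 in limma, also with each library left out, and in edgeR, where 604 of 10771 rows were under 0.05 unadjusted. DESeq2 called 1, Gabrr2. Of the 29080 rows to which it gave a p, 1054 were under 0.05 unadjusted.

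The log2 difference of the Peg10 to Sgce ratio ran from -0.55 to -0.43 with 1 library left out. Each exact permutation p was 0.00433, the smallest those regroupings give. As the groups do not overlap over 12 libraries, it could not be otherwise, so these p-values add no support. The difference did not pass when adjusted over all neighbouring pairs, with -0.50 and a limma adjusted p of 0.894, or of 0.922 with 1 prior variance for all pairs. These fits change the test, the number of comparisons and, in the second, the variance model together, and the cause was not tested. The r of Peg10 and Sgce ran from -0.44 to -0.15 with 1 library left out and turned to 0.25 on deviations from group means. With the replicate number as a block, limma called 0 rows with Peg10 at -0.32 (limma adjusted p 0.901). The ratio had the same difference, with an exact p of 0.0312 over 64 sign flips. That is the smallest possible, and it too was fixed by the lack of overlap. L-fucose 2 alone correlated best with its own number. Depth limits Calcr and Tfpi2 most, with as few as 6 and 5 reads in a library.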
